A study of Mus musculus with 4 samples.

Results

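The nuclear-encoded subunits of the mitochondrial respiratory chain and ATP synthase were followed through 4 sorted fractions of a mouse leukaemia. Members were chosen by the symbol of the probe annotation: Nduf genes of the A, B, C, S and V series without the Ndufaf assembly factors, Sdha to Sdhd, Uqcr genes, Cox4 to Cox8 genes, Atp5 genes and Cycs. Only probe sets annotated to 1 gene were used, and a gene with several was represented by the one with the highest mean deposited signal. The rule gave 83 of the 18194 genes measured, of which 36 belong to complex I, 4 to complex II, 8 to complex III, 17 to complex IV and 17 to complex V, with Cycs counted apart. No measured difference between fractions entered the choice of genes, although the gene family was taken up with earlier results of these data known.

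Complexes I and II pass electrons from NADH and succinate to coenzyme Q, complex III passes them on to cytochrome c, and complex IV hands them to oxygen. Complexes I, III and IV pump protons across the inner mitochondrial membrane, and complex V, the ATP synthase, uses the return flow of protons to make ATP. Complexes I, III, IV and V also hold subunits encoded in mitochondrial DNA, which in complex III is cytochrome b alone, so that these complexes are built from the products of both genomes. In acute myeloid leukaemia, cells with stem or progenitor properties are often described as reliant on oxidative phosphorylation.

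The leukaemia was made by introducing HoxA9 and Meis1 into marrow cells of a transgenic mouse, on the C57BL/6 background. The transgene, NS-GFP, places green fluorescent protein under a region of the promoter of nucleostemin, the nucleolar protein encoded by Gnl3. Cells from bone marrow were sorted by the surface receptor c-Kit and by NS-GFP into 4 fractions. The low fraction was c-Kit- with a low NS-GFP level, and the high fraction was c-Kit+ with a high one. Between them lay 2 fractions of middle NS-GFP level, c-Kit- middle and c-Kit+ middle, and signals are listed in the order low, c-Kit- middle, c-Kit+ middle, high. All 4 were sorted from this leukaemia, so that the transgene, HoxA9 and Meis1 are common to them and no fraction of untransformed marrow is among them. Whether cells of a host were gated out is not given in the labels. Each fraction was hybridised to 1 Affymetrix array, the number of mice and their age are not given in the labels, and no difference below has a replicate check or a p-value.

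Values are linear signals quantile normalised over the 4 arrays, and a signal of 15.3, the median of all probe sets, was taken as the floor for low signals. The sort markers ran with the labels: Kit had signals of 6.57, 26.4, 690 and 479 along the sort, and Gnl3 183, 584, 1109 and 1299. The summed signal of 9 myeloid leukaemia markers ranged from 12853 in the low fraction to 25321 in the high fraction. That rise was carried by the granule genes Mpo (193 and 7309), Elane (128 and 3187) and Ctsg (5229 and 9037), whereas Cd33 was 14.0-fold, Itgam 7.13-fold, Spi1 3.52-fold and Csf3r 2.25-fold lower in the high fraction, so that between the ends 2 of the 9 were at least 2-fold higher, 4 were at least 2-fold lower and the median log2 ratio was -0.83. That of 6 B and plasma cell markers was 5651, 829, 192 and 206 along the sort, with Cd79a and Ms4a1 at or below the floor throughout. That of 7 MHC class II and dendritic cell markers was 4617, 1429, 992 and 779. The 5 erythroid markers summed to 114 in the low fraction and to 27.0 in the high fraction with Hba-a1 at or below the floor, and the 6 T and NK cell markers to between 41.3 and 110 with Cd3e, Cd3g and Cd4 at or below it. Megakaryocyte markers (58.8 to 80.0, Gp9 and Ppbp at or below the floor) and stromal and endothelial markers (88.4 to 96.1, Col1a1, Col1a2, Cdh5 and Lepr at or below it) were low in all fractions. The ratio of 3′ to 5′ signal of the control transcript Actb was 2.50, 3.28, 3.98 and 4.70 along the sort, whereas that of Gapdh lay between 3.10 and 3.91. The part of other cell types and of RNA quality in the results below was not tested. In these bulk samples, fewer cells of a type and less RNA per cell cannot be told apart.

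Of the 83 members, 76 were above the floor on all 4 arrays, compared with 9147 of the 18194 genes, and their median signal was 989, 1396, 1275 and 1471 along the sort. Another 2, the tissue isoforms Cox4i2 and Cox6a2, were above it on 1 and 3 arrays. The remaining 5, Ndufa4l2, Ndufb4, Cox7a1, Cox7b2 and Cox8b, never were. For Ndufb4 this concerns the single-gene probe set, since probe sets shared with its copies Ndufb4b and Ndufb4c were above the floor. One of them had signals of 690, 1011, 896 and 1203, lowest in the low fraction. Another had 274, 169, 212 and 227, highest in the low fraction.

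Among the 76 members above the floor throughout, 58 had their lowest signal in the low fraction, which is 76.3% of them, against 43.2% of all genes above the floor on 4 arrays. None was lowest in c-Kit- middle (14.0% of all genes), 16 were lowest in c-Kit+ middle (17.6% of all genes) and 2, Ndufb11 and Cox7a2l, in the high fraction (25.2% of all genes). The highest signal was in the high fraction for 39 members (32.5% of all genes), in c-Kit- middle for 25 (12.3% of all genes), in c-Kit+ middle for 7 (20.5% of all genes) and in the low fraction for 5 (34.7% of all genes). On the authors' scaling the counts over the same genes were different. The lowest signal was then in the low fraction for 45 members (59.2%, against 28.8% of all genes), in c-Kit- middle for 13 (32.5% of all genes), in c-Kit+ middle for 18 (16.3% of all genes) and in the high fraction for 0 (22.4% of all genes). The highest signal was in the high fraction for 59 members (77.6%, against 34.1% of all genes), in c-Kit- middle for 5 (3.53% of all genes), in c-Kit+ middle for 3 (17.4% of all genes) and in the low fraction for 9 (44.9% of all genes). Of the 76 members, 57 had their lowest signal and 52 their highest signal in the same fraction on both scalings. The count of members with their maximum in c-Kit- middle and that with their minimum there thus depended on the scaling. All orders of fractions given below are those after quantile normalisation, and an exception on the authors' scaling is given where a statement rests on the order.

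**Figure D1:**
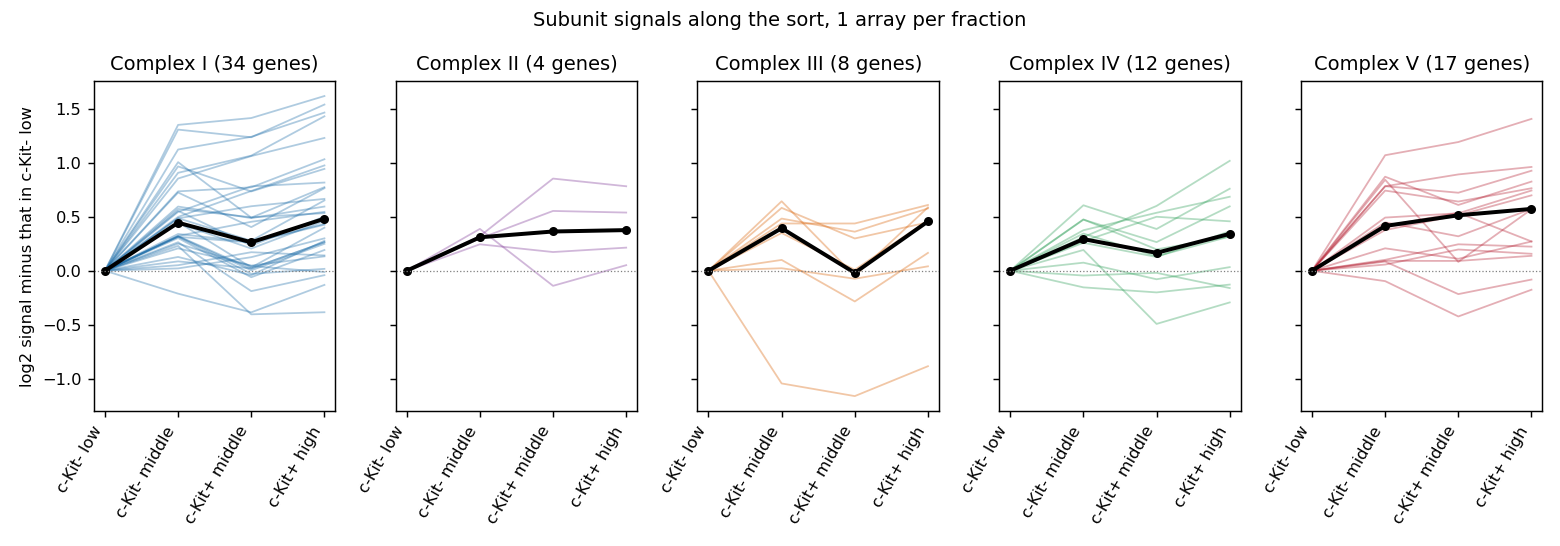
Quantile normalised log2 signal of each member above the floor on all 4 arrays, minus its log2 signal in the low fraction, by sorted fraction (x axis, labelled by c-Kit status and NS-GFP level), in 1 panel per complex. Thin lines are genes and the thick black line is the median of the complex. Most lines lie above 0 in c-Kit- middle, and Uqcrc1 of complex III runs near -1.05 there.

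Between the ends of the sort, the high against the low fraction, the median log2 ratio of the 78 members that could be compared was 0.46, beside 0.09 over 11280 genes. Of these 78 members, 67 were above 0 (85.9%), compared with 54.7% of all genes. The differences were mostly small. At least 2-fold higher signals were found for 8 members, Ndufc1, Ndufab1, Ndufb3, Ndufb6, Ndufa5, Ndufa4, Atp5g1 and Cox8c, or 10.3% of the members against 16.1% of all genes. None was at least 2-fold lower, against 13.7% of all genes. At 1.5-fold, 30 members were higher (38.5%, against 28.9% of all genes) and 1, Uqcrc1, was lower (22.8% of all genes). On the authors' scaling 12.6% of all genes were 2-fold higher and 16.7% lower, with 7 and 0 members. By the second brightest probe set of each gene, 10 of 46 members were 2-fold higher and 0 lower, against 16.1% and 14.2% of all genes, so that the share of members 2-fold higher lay on the other side of the background there. Both bright and dim members took part. The median was 0.48 over the 48 members with a mean signal above 1000, beside 0.07 over all 1135 such genes. It was 0.43 over the 28 others above the floor on all 4 arrays, beside 0.13 over all 8012 such genes. After quantile normalisation, with c-Kit- middle in place of the low fraction, the median was 0.09, beside 0.07 over all genes. No member was then 2-fold higher or lower (4.88% and 6.54% of all genes). This replacement was not made on the authors' scaling. There 59 of 76 members had their highest signal in the high fraction (34.1% of all genes) and 5 in c-Kit- middle (3.53% of all genes). The low fraction was also the one with the highest summed signals of the B and plasma cell, MHC class II and erythroid markers given above.

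The first step along NS-GFP, c-Kit- middle against the low fraction, was the largest of the 3 steps relative to all genes, on both scalings tried. The median was 0.36, beside 0.03 over all genes, and 72 of 78 members were above 0 (92.3%, against 51.9% of all genes). Ndufc1, Ndufab1, Ndufb3, Atp5g1 and Ndufs5 were at least 2-fold higher, 5 members against 6.67% of all genes, and Uqcrc1 was the 1 member at least 2-fold lower, against 5.48% of all genes. At 1.5-fold the counts were 18 higher (16.6% of all genes) and 1 lower (14.8% of all genes). On the scaling that the authors deposited, the median over all genes was -0.25 and that of the members 0.15, with 1 member 2-fold higher and 1 lower (3.54% and 11.0% of all genes), so that the members lay 0.40 above all genes on that scaling and 0.34 above them after quantile normalisation.

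At the middle gate, c-Kit+ middle against c-Kit- middle, the members lay slightly below all genes. Their median was -0.10, beside 0.02 over all genes, with 50 members below 0 and 26 above (33.8% above, against 52.0% of all genes). On the authors' scaling this median was 0.06 and that of all genes 0.16, so that the sign turned while the members again lay below all genes. No member was 2-fold higher or lower, against 3.57% and 5.3% of all genes (5.39% and 4.12% on the authors' scaling). At 1.5-fold, the muscle isoform Cox6a2 was higher (13.0% of all genes), and Atp5k, Uqcr10, Cox8a and Ndufa6 were lower (13.1% of all genes).

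The second step along NS-GFP, the high fraction against c-Kit+ middle, was small for all genes. The median of the members was 0.18, beside 0.02 over all genes, and 67 of 77 were above 0 (87.0%, against 53.2% of all genes). None was 2-fold higher or lower, against 1.01% and 1.02% of all genes. At 1.5-fold, 1 member, Uqcr10, was higher (6.24% of all genes) and none was lower (4.73% of all genes). The comparisons share arrays, so that their ratios are not independent of each other.

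**Figure D2:**
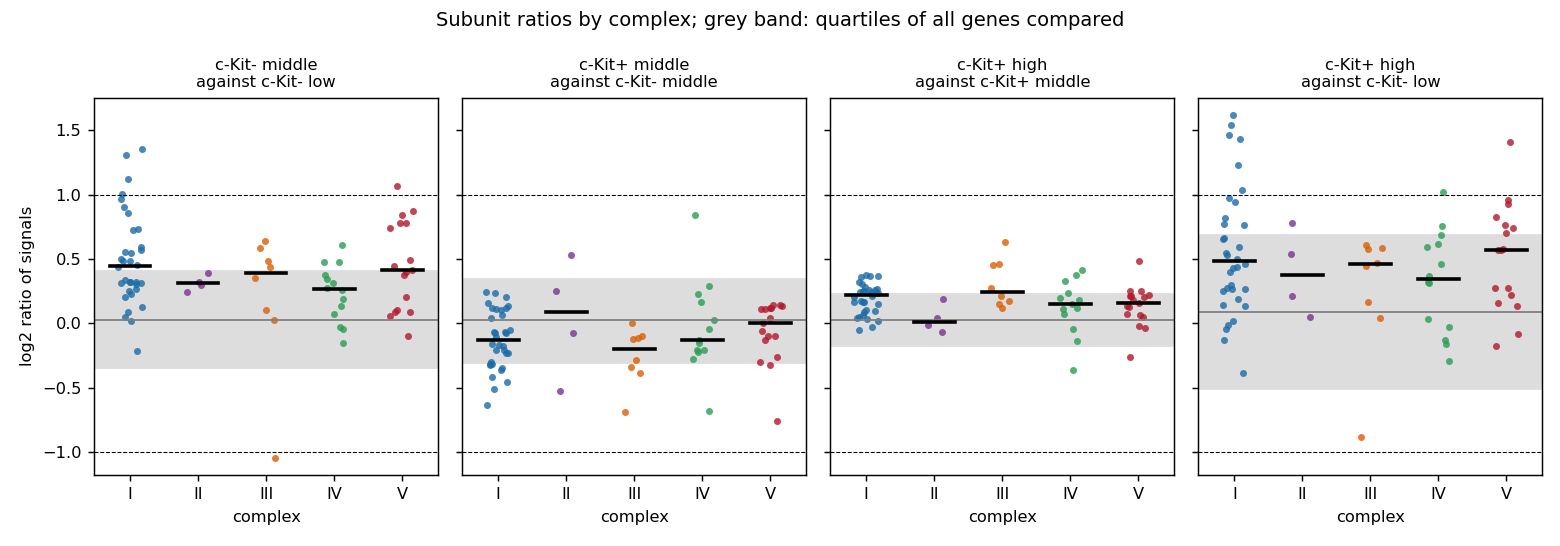
Log2 ratio of each compared member (points) by complex (x axis), in 1 panel per comparison, with the median of each complex as a black bar. The grey band spans the quartiles of all genes compared, the grey line is their median and dashed lines mark 2-fold. Members lie mostly above the median of all genes except in c-Kit+ middle against c-Kit- middle.

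Promoters are shown for the 3 members with the largest ratio between the ends and the 1 with the smallest, because most subunits differed in a common direction while Uqcrc1 went the other way. The windows run from 250 bases before to 50 bases after the annotated start, from RefSeq on the build named, and are written 5′ to 3′ on the gene's strand. Capitals mark matches on either strand to any of 6 motifs: the NRF1 core CGCATGCG, the ETS core CCGGAAG, the YY1 core AAGATGG, the GC box GGGCGG, the E-box CACGTG and the TATA motif TATAAA.
Ndufc1, GRCm38.p6, chr3:51408906-51409205, minus strand: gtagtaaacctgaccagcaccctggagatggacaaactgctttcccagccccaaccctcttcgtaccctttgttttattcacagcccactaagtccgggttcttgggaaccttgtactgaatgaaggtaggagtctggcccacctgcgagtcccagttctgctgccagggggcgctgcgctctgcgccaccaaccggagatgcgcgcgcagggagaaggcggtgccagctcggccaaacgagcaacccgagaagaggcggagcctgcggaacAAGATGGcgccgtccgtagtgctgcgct
Ndufab1, GRCm38.p6, chr7:122101799-122102098, minus strand: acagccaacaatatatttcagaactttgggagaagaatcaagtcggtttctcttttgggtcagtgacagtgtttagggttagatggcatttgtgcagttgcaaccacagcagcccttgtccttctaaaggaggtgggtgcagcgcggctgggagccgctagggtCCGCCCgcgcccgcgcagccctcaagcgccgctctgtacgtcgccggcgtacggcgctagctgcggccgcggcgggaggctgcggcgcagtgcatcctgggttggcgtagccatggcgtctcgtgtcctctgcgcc
Ndufb3, GRCm38.p6, chr1:58586147-58586446, plus strand: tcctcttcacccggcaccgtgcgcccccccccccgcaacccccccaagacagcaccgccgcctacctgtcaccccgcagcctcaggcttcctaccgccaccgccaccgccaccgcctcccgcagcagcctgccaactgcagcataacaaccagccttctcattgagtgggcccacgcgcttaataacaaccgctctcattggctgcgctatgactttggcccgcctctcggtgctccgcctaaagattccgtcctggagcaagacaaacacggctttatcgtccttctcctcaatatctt
Uqcrc1, GRCm38.p6, chr9:108936398-108936697, plus strand: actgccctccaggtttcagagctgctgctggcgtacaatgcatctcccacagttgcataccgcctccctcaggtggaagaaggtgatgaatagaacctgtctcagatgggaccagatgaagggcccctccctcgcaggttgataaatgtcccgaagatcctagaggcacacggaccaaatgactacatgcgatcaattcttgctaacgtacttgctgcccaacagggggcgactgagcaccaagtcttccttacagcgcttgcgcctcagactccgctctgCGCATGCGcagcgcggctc
The capitals are a YY1 core that begins 23 bases after the start in Ndufc1, a GC box on the opposite strand that begins 86 bases before it in Ndufab1, and an NRF1 core that begins 32 bases after it in Uqcrc1. Ndufb3 had no match. A match is a run of letters and not a measured binding site.

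Of the members, 68 had 73 windows in the table, which holds 32851 windows of 27025 genes, all of the same length of 300 bases. The NRF1 core was in 9 member windows (12.3%), against 1.87% of all windows, and the ETS core was in 17 (23.3%), against 8.86%. The YY1 core was in 10 (13.7%, against 6.34%), the GC box in 31 (42.5%, against 35.7%), the E-box in 7 (9.59%, against 7.15%) and the TATA motif in 9 (12.3%, against 13.6%). These shares describe the family and were not tested. Among members at least 1.5-fold higher between the ends, with 27 windows, the NRF1 core was in 2, the ETS core in 5, the YY1 core in 4, the GC box in 14, the E-box in 2 and the TATA motif in 1. In the 42 windows of the other compared members the counts were 7, 12, 6, 15, 5 and 6. In windows of members with larger ratios the NRF1 core (7.41%, against 16.7%) and the ETS core (18.5%, against 28.6%) were thus not more frequent. The E-box (7.41%, against 11.9%) and the TATA motif (3.70%, against 14.3%) were not either. The GC box was more frequent there (51.9%, against 35.7%), and the YY1 core was nearly equal (14.8%, against 14.3%). These differences rest on few windows and were not tested.

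Complex I, which oxidises NADH, held 34 of the 78 members compared between the ends and 6 of the 8 members past 2-fold. Its share of 6 in 34 was near the 16.1% of all genes at least 2-fold higher. Ndufa4 is counted among the 6 by its symbol. Its 34 compared members had a median log2 ratio of 0.48, from -0.38 for Ndufa6 to 1.62 for Ndufc1, and 30 were above 0. Ndufc1, an accessory subunit of the membrane arm whose promoter holds the YY1 core shown above, had signals of 522, 1333, 1393 and 1604 along the sort, a 3.07-fold difference between the ends. Ndufb3 and Ndufb6 are accessory subunits of the same arm. Ndufb3 had signals of 536, 1168, 1267 and 1481, and Ndufb6 of 755, 1416, 1581 and 2036. By the probe sets used, each fraction in these 3 genes was above the one before it on both scalings. The second probe set of Ndufc1, however, had 132, 408, 203 and 352, highest in c-Kit- middle. Its log2 ratio at the middle gate was -1.01, against 0.06 by the first.

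Ndufab1 is the mitochondrial acyl carrier protein, a subunit of complex I that also serves fatty acid synthesis in the organelle. Its signals were 158, 391, 373 and 460, a 2.91-fold difference between the ends. A probe set shared with the pseudogene Ndufab1-ps, left out of the counts, had signals of 400, 809, 1025 and 1217. Both sets of values were lowest in the low fraction. Ndufa5, an accessory subunit of the matrix arm, had signals of 405, 732, 845 and 950. Ndufa4, first described in complex I and since assigned to complex IV, had 425, 709, 727 and 871. Both were higher in each fraction than in the one before it.

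Ndufb2 had signals of 491, 694, 821 and 967, and Ndufa9, a matrix arm subunit, had 589, 860, 1014 and 1039, in the same order. Other accessory subunits departed from it. Ndufs5 had signals of 73.6, 148, 104 and 126, highest in c-Kit- middle. A probe set shared with the pseudogene Ndufs5-ps, left out of the counts, had 113, 181, 172 and 215, highest in the high fraction. Ndufa12 had signals of 890, 1739, 1481 and 1712 and was highest in c-Kit- middle, but in the high fraction on the authors' scaling. Ndufa6, an LYR-motif protein that binds the acyl carrier protein, had signals of 835, 980, 631 and 640 and differed 1.55-fold at the middle gate, with c-Kit+ the lower. Ndufb9, another LYR-motif protein, had signals of 1646, 2306, 1996 and 2587 and was lowest in the low fraction. Ndufb1 (107, 92.3, 81.8 and 97.6) and Ndufb11 (3473, 4133, 3580 and 3444) differed little between the ends.

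The 6 core subunits measured, which carry the flavin and the iron-sulphur clusters or lie beside them, had smaller ratios than the accessory ones. Their median between the ends was 0.29, compared with 0.54 over 28 accessory subunits, a grouping chosen after the values were seen. Ndufv2, an iron-sulphur subunit, was the core subunit with the largest ratio, with signals of 1141, 1886, 1510 and 1938. Ndufv1, which binds NADH, had signals of 1705, 2120, 2044 and 2291. Ndufs1, the largest iron-sulphur subunit, had 452, 543, 397 and 439 and was the core subunit with a ratio below 0. In c-Kit- middle against the low fraction the medians of core and accessory subunits were 0.29 and 0.49.

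Complex II, succinate dehydrogenase, has all its subunits encoded in the nucleus, and all 4 were above the floor throughout. Sdha, the flavoprotein, had signals of 1390, 1710, 2041 and 2020, and the membrane anchor Sdhd had 448, 560, 811 and 772, both higher in each c-Kit+ fraction than in each c-Kit- fraction. The second probe set of Sdha had 722, 943, 916 and 968, with c-Kit+ middle below c-Kit- middle. Sdhb, the iron-sulphur subunit, had 1228, 1607, 1114 and 1273, with c-Kit- middle above the others. Sdhc, the other anchor, had 244, 289, 275 and 283, which differ by at most 1.19-fold. At the middle gate the 4 subunits split, from -0.53 for Sdhb to 0.53 for Sdhd, with a median of 0.09.

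The 8 members of complex III, the cytochrome bc1 complex, had a median of 0.46 between the ends. At the middle gate none was above 0 and the median was -0.20, with Uqcrb at 0.00. On the authors' scaling 4 of the 8, Uqcrb, Uqcrc1, Uqcrc2 and Uqcrh, were above 0 there and the median was -0.053. Uqcrb, a small subunit near the quinone site whose probe set was the brightest of any member, had signals of 5280, 7153, 7153 and 8057. The Rieske iron-sulphur protein Uqcrfs1 had signals of 1568, 2348, 1929 and 2139. The small subunit Uqcr10 had 140, 218, 135 and 210, which gave it the largest ratio of any member in the high fraction against c-Kit+ middle and one of the lowest at the middle gate. Further small subunits, Uqcr11 (861, 1097, 866 and 1190) and Uqcrq (562, 602, 461 and 630), alternated in the same way, although on the authors' scaling Uqcrq was lower in c-Kit- middle than in the low fraction.

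The core proteins of complex III parted. Uqcrc1, whose promoter holds the NRF1 core shown above, had signals of 1220, 591, 545 and 660, and Uqcrc2, its partner in the matrix-facing core, had 1873, 2619, 2408 and 2796. Uqcrc1 was thus 2.06-fold lower in c-Kit- middle and 1.85-fold lower in the high fraction than in the low fraction, while Uqcrc2 was 1.40-fold and 1.49-fold higher. Uqcrc1 was measured by 1 probe set, and its value could not be repeated within the array. The other members below 0 between the ends lay between -0.38 and -0.01.

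Cycs, cytochrome c, carries electrons from complex III to complex IV and also acts in apoptosis once released. Its signals were 3603, 5310, 5280 and 5924, a 1.64-fold difference between the ends, and a second probe set had 1401, 2630, 2495 and 2866. Both probe sets put the low fraction below the other 3 fractions.

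Complex IV, cytochrome c oxidase, had a median of 0.34 between the ends over 14 compared members, from -0.29 for Cox8a to 1.02 for Cox8c. Cox4i1 had signals of 4456, 4693, 4218 and 4560, and neighbours in the sort differed by at most 1.11-fold. Cox5a had signals of 2864, 3715, 4156 and 4606, each above the one before. Cox5b had 4243, 5077, 4635 and 5467, and Cox7a2 2916, 4047, 3504 and 4408, with dips at c-Kit+ middle. Cox7a2l is described as joining complexes III and IV into supercomplexes, a role that was not examined in these mice. It had signals of 4531, 4393, 4470 and 4054 and was lowest in the high fraction, or in c-Kit- middle on the authors' scaling. Cox7c (128, 115, 111 and 117) was highest in the low fraction, but its second probe set gave a ratio of 0.54 between the ends against -0.13.

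Tissue isoforms of complex IV mostly lay near or below the floor. The muscle isoform Cox6a2 had signals of 9.0, 16.8, 30.1 and 23.4 and the ubiquitous Cox6a1 had 3428, 4768, 3932 and 4268. With the low fraction below the floor, Cox6a2 was at least 1.53-fold higher in the high fraction. The testis isoform Cox6b2 had signals of 98.5, 150, 129 and 167, in the same order of fractions as Cox6b1 with 3273, 4156, 3591 and 4079 except for its maximum, which on the authors' scaling was in the high fraction for both. Cox4i2, an isoform known from lung, had 15.6 in the low fraction and was below the floor elsewhere, and the muscle isoforms Cox7a1 and Cox8b and the testis isoform Cox7b2 were below it in every fraction. Cox8c, another testis isoform, had signals of 30.9, 38.4, 46.9 and 62.7, a 2.03-fold difference between the ends, while Cox8a had 203, 232, 144 and 166. The second probe set of Cox8c was below the floor on all arrays.

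**Figure D3:**
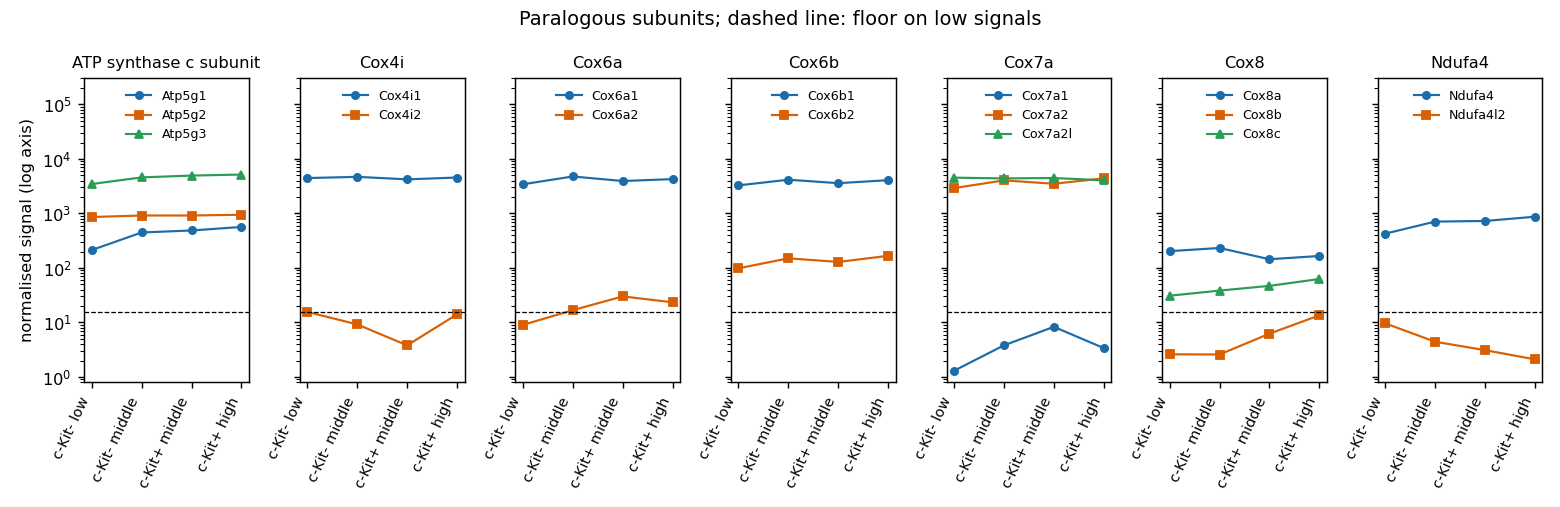
Normalised signal (log axis) by fraction for subunits with paralogs, 1 panel per group, with the floor of 15.3 as a dashed line. Levels of different probe sets cannot be set against each other, so each line is read along the sort only. Atp5g1 and, after this normalisation, Cox8c are higher at each fraction than at the one before it, and Cox7a1, Cox8b and Ndufa4l2 stay below the floor.

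Complex V had a median of 0.57 over 17 members between the ends, and of 0.42 in c-Kit- middle against the low fraction. Its subunits differed by their place in the enzyme. The F1 part, where ATP is made, is formed with its central stalk by the products of Atp5a1, Atp5b, Atp5c1, Atp5d and Atp5e. It is called the F1 head here, and these 5 had a median of 0.16 between the ends. The 12 subunits of the membrane ring, the peripheral stalk and the dimer contacts had a median of 0.72, and all 12 were above 0. In c-Kit- middle against the low fraction the medians were 0.08 and 0.62, and that of the head turned to -0.14 on the authors' scaling, where all genes had -0.25. This grouping, too, was chosen after the values were seen.

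Among the head subunits, Atp5a1 had signals of 3130, 3356, 3709 and 3654, and the catalytic Atp5b had 2144, 2230, 2457 and 2390. Atp5d had 2199, 2057, 1639 and 1946, highest in the low fraction. By the probe sets used, the head genes differed by at most 1.21-fold between the ends. The second probe set of Atp5c1, however, had signals of 178, 119, 125 and 116 and a log2 ratio of -0.61, against 0.27 by the first. Second probe sets, measured for 3 head genes, had a median of -0.26 between the ends, and those of 6 other subunits 0.64.

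Outside the head, Atp5pb, the b subunit of the peripheral stalk, had signals of 1607, 2764, 2983 and 3130. Atp5o, which links the stalk to the head, had 823, 1377, 1283 and 1398, and Atp5j, coupling factor 6, had 749, 1371, 1144 and 1329. Atp5md, a small subunit of ATP synthase dimers, had 201, 345, 331 and 381. All of these were lowest in the low fraction. Atp5k, the e subunit, had 984, 1766, 1042 and 1461, which gave the lowest ratio of any member at the middle gate, and its second probe set gave 930, 1673, 1097 and 1279. Both of its probe sets alternated between the fractions in the same way. Atp5l, the g subunit, had 237, 315, 343 and 286 and the lowest ratio of complex V in the high fraction against c-Kit+ middle, -0.27.

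The c subunit of the membrane ring is encoded by 3 genes whose mature proteins are identical and which differ in their import sequences. Atp5g1 had signals of 213, 447, 487 and 565, a 2.65-fold difference between the ends. Atp5g3 had 3467, 4583, 4953 and 5168, a 1.49-fold difference, and Atp5g2 had 860, 916, 916 and 946, a 1.10-fold difference. The 3 genes differed in the size of the ratio. All 3 had their lowest signal in the low fraction after quantile normalisation, but Atp5g2 had it in c-Kit- middle on the authors' scaling.

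**Figure D4:**
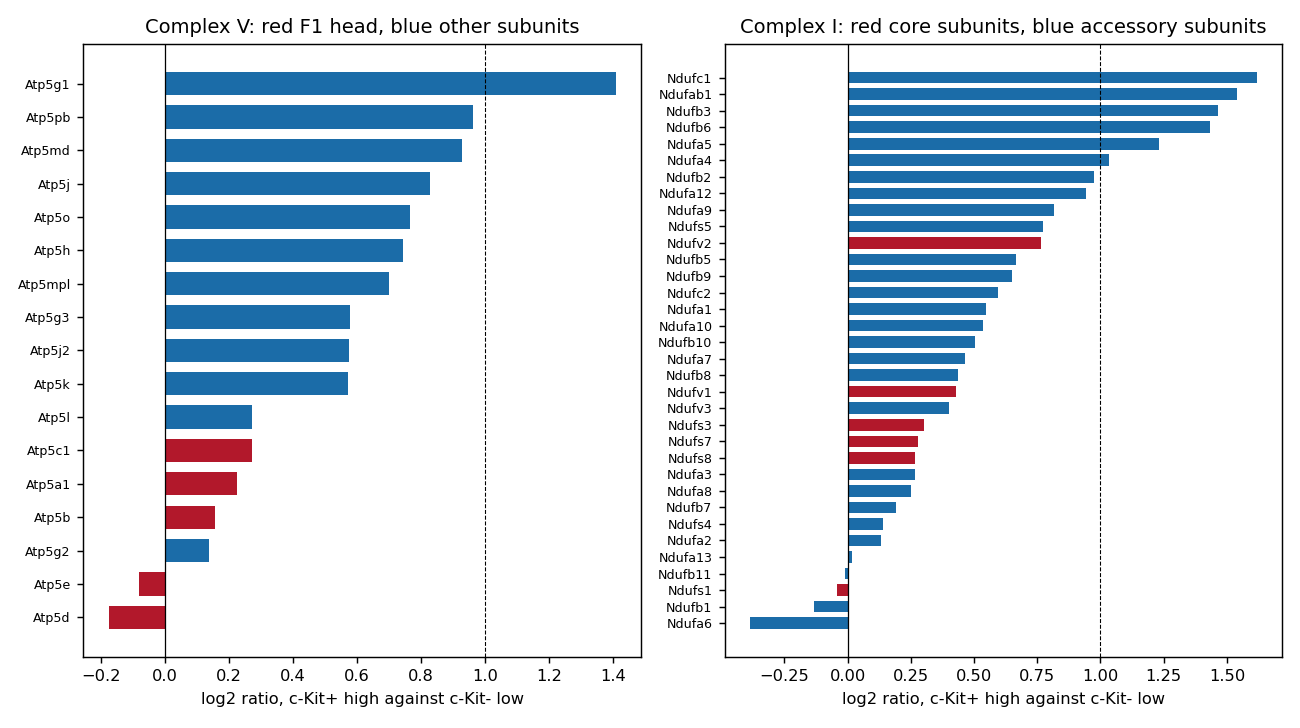
Log2 ratio of the high against the low fraction (x axis) for each compared subunit of complex V (left) and complex I (right). Red bars are F1 head or core subunits, blue bars the other subunits, and the dashed line marks 2-fold. The 5 head genes lie among the lowest bars of complex V, between -0.18 and 0.27.

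The array gives a repeat measurement where a gene has a second probe set, which covers probe error but not the spread between sorts or animals. For the ends, 46 members had 2 probe sets above the floor on both arrays. Over these members a log2 ratio from 1 probe set had an SD of 0.28, compared with 0.48 over all genes. Their medians were 0.50 by the probe set used and 0.46 by the second, and 40 of 46 had the same sign (87.0%, against 78.7% of all genes). In c-Kit- middle against the low fraction the SD was 0.24, the medians were 0.38 and 0.36, and 40 of 45 had the same sign (88.9%, against 73.2% of all genes). The SD at the middle gate was 0.19, the medians were -0.10 and -0.06, and 32 of 45 had the same sign (71.1%, against 68.9% of all genes). In the high fraction against c-Kit+ middle the SD was 0.15, the medians were 0.18 and 0.21, and 38 of 46 had the same sign (82.6%, against 61.4% of all genes).

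Signs differed between the probe sets at the ends for Ndufb11, Ndufs8, Uqcrq, Cox7c, Atp5a1 and Atp5c1. In c-Kit- middle against the low fraction they differed for Ndufa5, Ndufs7, Uqcrq, Cox7c and Atp5c1. Of the members past 2-fold at the ends, the second probe set gave log2 ratios of 1.41 for Ndufc1, 1.13 for Ndufab1, 0.82 for Ndufb6 and 0.45 for Ndufa5. The second probe sets of Atp5g1 and Cox8c were below the floor, and Ndufb3 and Ndufa4 had only 1. Some members had a larger ratio by the second probe set, such as Uqcrb with 1.88, Atp5o with 1.54 and Sdhd with 1.41. Ndufc1 and Ndufab1 were therefore the 2-fold members at the ends that both probe sets put past 2-fold.

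**Figure D5:**
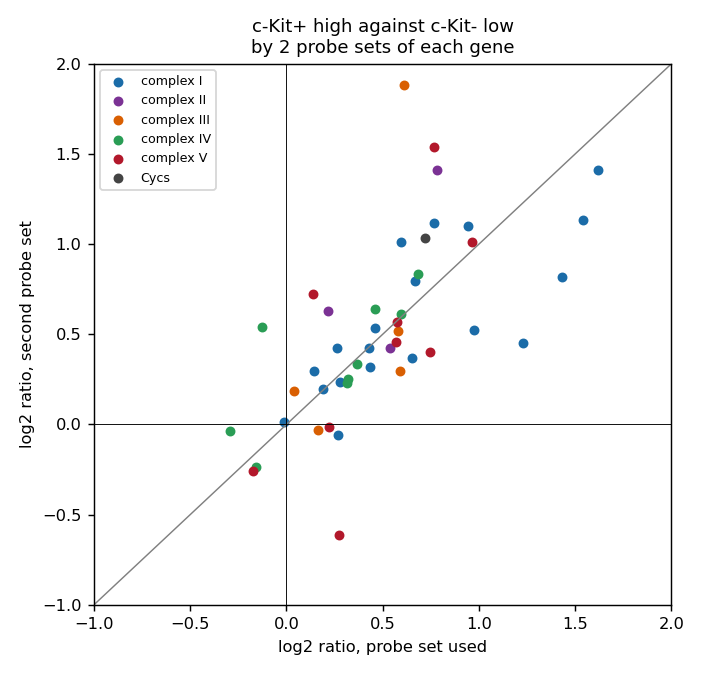
Log2 ratio of the high against the low fraction by the probe set used (x axis) and by the second probe set (y axis) for the 46 members measured by both, coloured by complex. The diagonal marks equal ratios. Most points lie above 0 on both axes, and 6 genes have opposite signs.

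The genes that build and feed the chain were followed in 13 lists of other pathway genes, 114 of which were on the array. Between the ends 31 of 110 compared genes were at least 2-fold higher and 2 lower, beside 16.1% and 13.7% of all genes, with a median of 0.62. In c-Kit- middle against the low fraction 15 were higher and 0 lower, beside 6.67% and 5.48% of all genes, with a median of 0.33. At the middle gate 4 were higher and 0 lower, beside 3.57% and 5.3% of all genes, so that the share higher was near the background, with a median of 0.12. In the high fraction against c-Kit+ middle none was higher or lower, beside 1.01% and 1.02% of all genes, with a median of 0.14. At the middle gate this median lay above that of all genes, 0.02, and that of the subunits, -0.10, lay below it.

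Assembly factors included several of these genes. The counts per list stand beside 16.1% of all genes at least 2-fold higher between the ends, and several lists hold few genes. For complex I, 5 of 17 were at least 2-fold higher between the ends, among them Ndufaf4 with signals of 207, 420, 607 and 736 and Ndufaf2 with 48.1, 101, 116 and 167. The others were Ndufaf6 (3.15-fold), Tmem186 (2.83-fold) and Ndufaf1 (2.75-fold). For complex IV, 7 of 20 were, among them Cox15, an enzyme of haem A synthesis, with 182, 314, 443 and 541, and Lrpprc, which stabilises mitochondrial mRNAs, with 104, 186, 245 and 284. Cox18, Coa7, Cmc2, Coa6 and Sco1 lay between 2.22-fold and 2.65-fold. Complex II had 1 of 4, Sdhaf3 (2.83-fold), complex III had 1 of 5, Bcs1l (2.26-fold), which inserts the Rieske protein, and complex V had 2 of 5. Those 2 were Fmc1 with 43.0, 129, 129 and 208, a factor known from yeast for assembly of the F1 head, and Tmem70 with 135, 190, 280 and 286. These examples were chosen for their ratio between the ends, so that their low signal in the low fraction follows largely from the choice. At 1.5-fold, 8 of 17 genes for complex I, 2 of 5 for complex III and 12 of 20 for complex IV were higher (28.9% of all genes). Dmac2, Ttc19 and Surf1 were lower, 1 in each of these lists (22.8% of all genes).

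Of 8 genes for other routes of electron entry, 5 were at least 2-fold higher between the ends, beside 16.1% of all genes. Prodh, proline dehydrogenase, had signals of 25.8, 54.7, 117 and 156, a 6.06-fold difference. Etfa and Etfb, the electron transfer flavoprotein that collects electrons from fatty acid oxidation, had 397, 727, 1065 and 1054, and 312, 645, 845 and 931. Dhodh, which links pyrimidine synthesis to coenzyme Q, had 89.1, 150, 169 and 220. Chdh, choline dehydrogenase, was the other and differed 4.66-fold. These genes were higher in both c-Kit+ fractions than in both c-Kit- fractions where all 4 values are given.

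Coenzyme Q synthesis had 3 of 12 genes higher (16.1% of all genes), with Coq7 at 116, 329, 369 and 455, Coq4 at 3.24-fold and Coq3 at 2.07-fold. In that list 1 gene was lower (13.7% of all genes), the kinase-like Coq8a at 153, 96.1, 73.2 and 62.3. Cristae and supercomplex genes had 4 of 10 higher, with Apoo, a subunit of the MICOS complex that shapes cristae, at 64.3, 163, 307 and 342, and Chchd6 of the same complex at 72.1, 189, 196 and 329. Apool (3.58-fold) and Chchd3 (2.03-fold) were the others. The supercomplex-associated Higd2a was lower, at 2776, 1983, 1322 and 1281. Of 6 genes of mitochondrial DNA replication 1 was higher, Top1mt (3.22-fold), a share near the 16.1% of all genes. Of the 6 for ATP, phosphate and outer membrane transport none was. Cyc1, the nuclear-encoded cytochrome c1 of complex III, whose symbol falls outside the rule, had 1347, 1705, 1872 and 2428, a 1.80-fold difference. The 1 probe set for a subunit encoded in mitochondrial DNA, ND5 of complex I, had 3218, 3292, 2383 and 2737 and a log2 ratio between the ends of -0.23.

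Of 14 transcription factor genes of the chain, 2 were at least 2-fold higher between the ends, a share near the 16.1% of all genes. At 1.5-fold 6 were higher (28.9% of all genes), Pprc1, Gabpa, Tfam, Tfb1m, Tfb2m and Ppargc1b. Esrra was the 1 lower at that size (22.8% of all genes). Pprc1, a coactivator related to PGC-1alpha, had signals of 165, 162, 349 and 363, and Gabpa, an ETS factor known to act on promoters of respiratory chain genes, had 343, 502, 697 and 687. Nrf1 had 229, 186, 136 and 161 and Esrra 152, 108, 91.7 and 85.2, both highest in the low fraction. Ppargc1a was below the floor throughout, and Tfam, which packages and transcribes mitochondrial DNA, had 201, 238, 400 and 330.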

How the data were processed

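RNA of 4 sorted fractions was measured with 1 array each, so no test was run, and the number of arrays limits the precision. Per the labels' protocols, total RNA was extracted with TRIzol and labelled with biotin. The deposited intensity values are linear signals of 45101 probe sets, and the other deposited table gives log2 values for 17419 probe sets, which equal the log2 of the first plus 1 constant per array. The tools named per the submitters' processing notes are GCOS 1.2, MAS5 and R 3.0.2, without the step each served. No column of values was left unused (0 columns).

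The 64 control probe sets were left out. Trimmed means, without 2% at each end, differed by 21.5%, above the 10% allowed, so signals were quantile normalised, floored at the 50th percentile and taken to log2 (Python 3.11.15, numpy 2.4.6, pandas 2.3.3). A comparison used the genes above the floor on at least 1 of its arrays. Of the probe sets, 34945 list 1 gene, 932 several and 9160 none. All 83 members were matched to the reference by gene ID. Second probe sets served as the repeat measurement. Calls are folds of 2 and 1.5. The calculation was tested on simulated data.

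The members, gene lists and rules were chosen with earlier results of these data known. Named members are the 6 highest and 4 lowest of each comparison, those past 2-fold, the extremes of each complex, the paralog groups and Cycs. Members whose second probe set points the other way are named in full for the ends and the first step only. From the pathway lists, genes past 2-fold and the 2 furthest in the direction of the median are named. Other members and pathway genes given with values (for example Ndufv1, Cox5a, Atp5b, Sdhc, Nrf1, Tfam and ND5) were chosen after their values were seen. Alternatives were the authors' scaling, the second table, centring, other floors, other probe sets, other sets of members and the ends with c-Kit- middle as the lower one.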

Additional observations from a re-analysis of the deposited data

How the results depend on the processing

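Of 94 recomputed values of the members as a whole, 78 stayed near the reported value, 15 moved and 1 was counted as reversed. Of 413 values for complexes and groups 392 stayed near it and 21 moved, and of 151 for single members 134 and 17. The 1 value counted as reversed was the median of c-Kit+ middle against c-Kit- middle on the authors' scaling, 0.057. A median was so counted only where an interval around the main value excluded 0, and other medians changed sign without being counted. That of the F1 head did so at the first step, as given above. At the middle gate on the authors' scaling, complex I went from -0.133 to 0.0013 and complex V from -0.0008 to 0.13. On that scaling the median of c-Kit- middle against the low fraction was 0.15 (complex I 0.19, complex II 0.045) with 1 member 2-fold higher, that of the high fraction against c-Kit+ middle 0.25 (complex I 0.29, complex V 0.22), and complex V at the middle gate 0.13. The authors' scaling moves the median of all genes to -0.05 at the ends, where members then lay 0.53 above it instead of 0.37. On it, 12.6% of all genes were 2-fold higher and 16.7% lower at the ends, 3.54% and 11.0% in c-Kit- middle against the low fraction, and 5.39% and 4.12% at the middle gate. The higher share of all calls in the high fraction against c-Kit+ middle was 49.6%, 39.3% on the authors' scaling and 21.9% in the second table. With c-Kit- middle as the lower end, tried after quantile normalisation only, the ends gave 0.094 for the members (complex I 0.086, complex V 0.10) and 0 members 2-fold higher. At the first step, c-Kit- middle against the low fraction, the second table and the mean of all probe sets each left 3 members 2-fold higher. At the middle gate the second table gave -0.23 for complex IV and the second brightest probe set 0.031 for complex III. With the floor at the 25th percentile 1 member was 2-fold higher at the middle gate and 3 in the high fraction against c-Kit+ middle, and without a floor 2 and 3. At 1.5-fold the counts were 30, 18, 1 and 1 in the order ends, first step, middle gate and second step. Order counts on the authors' scaling, added after the data were seen, moved from 58 to 45 members lowest in the low fraction, from 25 to 5 highest in c-Kit- middle and from 39 to 59 highest in the high fraction. The causes were not tested. No paired analysis was possible because each fraction has 1 array, and no array could be left out as a replicate. Signal limits the dim isoforms near the floor.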
